A study of Mus musculus with 12 samples.

Results

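Immediate early genes are switched on within minutes of a hormone, nerve or stress signal without new protein synthesis, and most of them encode transcription factors. Members of the Fos family (Fosb and Fosl2 among them) pair with members of the Jun family to form AP-1, a dimer that binds DNA through a basic leucine zipper. Their mRNAs and those of Egr2, Myc and Bhlhe40 are short-lived as a rule, and N6-methyladenosine (m6A), a methyl mark written on adenosines of mRNA mainly near stop codons and in 3′ UTRs, is one of the marks through which mRNA turnover is set. In fat, cold acts through sympathetic nerves and noradrenaline, and beige adipocytes, which produce heat, form in subcutaneous depots.

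The genes described here are Fosb, Fosl2, Jun, Egr2, Myc, Bhlhe40 and Hspa1b, 6 transcription factors of this kind and a heat-inducible chaperone. Every row of the authors' deposited differential m6A site tables that carried one of these gene names was taken, which gave 7 sites in 7 genes of 739 sites in 574 genes. The genes were selected on measured values, since a gene had to be called differential to have a row, so direction, fold, p and false discovery rate (FDR) of their sites are given as a description with no test. The sites came from MeRIP-seq of inguinal white adipose tissue (iWAT), in which mRNA fragments are pulled down with an antibody against m6A (m6A IP) and sequenced beside fragments that were not pulled down (input). The tissue was from young adult male C57BL/6 mice (C57BL/6J in the methods of the study) that spent 7 days at either 4 °C (cold) or 30 °C (thermoneutral), and these groups carried no other treatment or allele. The 12 libraries were 3 of m6A IP and 3 of input at each temperature. Whole tissue was labelled, although the source name given for the samples reads adipocytes, so fewer cells of a type and less RNA per cell cannot be told apart.

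Only the finished comparison of cold with thermoneutral was analysed here, so no value of a single library can be given, the depth behind each site is unknown, and no fold has an SD or n. The fold in the tables divides the larger group by the smaller and so is above 1 in either direction. Whether the inputs entered it is not given in the sources used here, so it can hold a change in the amount of a transcript as well as in its methylation, and the 2 cannot be told apart. Of the marker genes checked, 5 of 6 beige adipocyte genes had sites higher in cold (Ucp1, Cidea, Dio2, Ppargc1a and Cpt1b), and 3 of 5 skeletal muscle genes had sites higher in cold. In the other direction, 3 of 6 macrophage and 3 of 6 fibroblast genes had lower sites and the white adipocyte gene Lep had 1, while no endothelial, Schwann cell or lymphocyte marker had a site. The part of these cell types in the sites of the 7 genes was not tested.

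The sequence in which m6A is written is DRACH, that is A, G or T, then A or G, then A, C and A, C or T, with the third letter methylated. As an example from each gene, the DRACH match nearest to the centre of each site is given 5′ to 3′ on the transcribed strand. It is shown with 10 bases on each side, read from GRCm38 (mm10), and capitals mark the match. The sites held from 2 (Fosb) to 33 (Bhlhe40) DRACH matches, and closeness to the centre does not rank them as methylated bases. A match is a description and not a mapped methylated base, since the sites are at least 300 bp long.
Fosb, chr7:19305189-19305213, minus strand: ggtggcccacAAACCgggctgcaag
Fosl2, chr5:32157050-32157074, plus strand: tgtgctgtatAAACTgtattaaaaa
Jun, chr4:95051171-95051195, minus strand: acggctacagTAACCctaagatcct
Egr2, chr10:67541418-67541442, plus strand: ggcttgggacTGACTtgggggtggg
Myc, chr15:61987819-61987843, plus strand: ctggagatgaTGACCgagttacttg
Bhlhe40, chr6:108665184-108665208, plus strand: ccagcttcatGAACCcagacaagat
Hspa1b, chr17:34957281-34957305, minus strand: agaaggtgctGGACAagtgccagga

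Sites in Fosb, Myc, Bhlhe40 and Jun were higher in cold, and sites in Fosl2, Hspa1b and Egr2 were lower. Each gene had a single site, as did 471 of the 574 genes (82.1%), so none of the 7 changed in both directions. The 4 higher of 7 sites stand beside 40.7% of all listed sites that were higher in cold, and the 4 of 7 genes beside 36.1% of all genes that had higher sites only. Because the rule used this contrast, nothing is read from that difference. The folds of the 7 sites ran from 4.66 in Jun to 345.7 in Fosb, their deposited p from 8.05e-09 to 4.24e-07 and their FDR from 1.73e-07 to 3.83e-06. The higher sites had a median fold of 24.7, beside 11.8 for all 301 higher sites, and without Fosb their median was 9.36. The lower sites had a median of 8.46, beside 20.9 for all 438 lower sites.

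**Figure D1:**
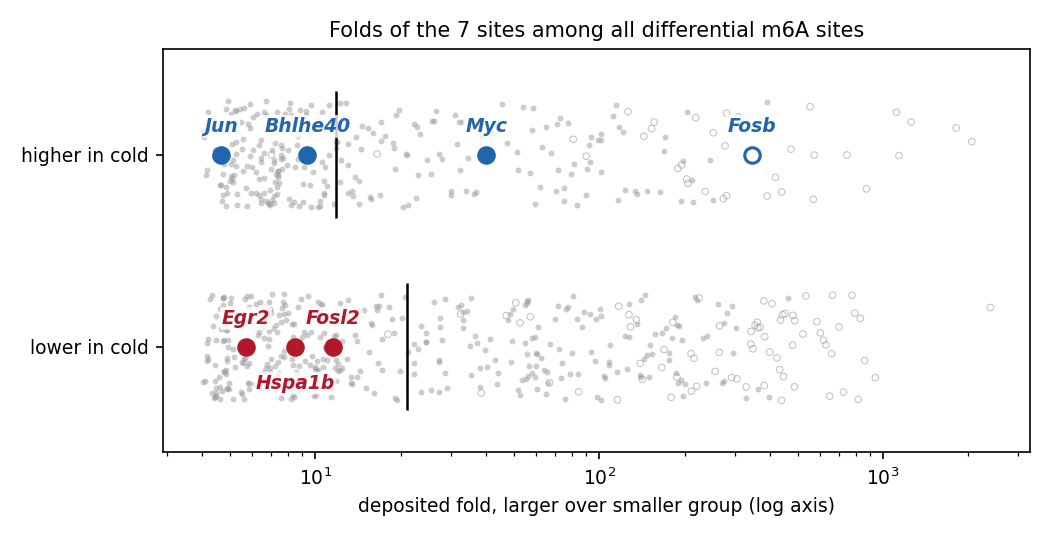
Deposited fold of every differential m6A site on a log axis, with sites higher in cold above and sites lower in cold below and vertical scatter added for visibility only. Grey points are single sites, open circles are folds in whole multiples of 0.1, black bars are the medians of all sites in that direction (11.8 and 20.9), and the 7 named sites are coloured, with Jun at 4.66 at the low end and Fosb at 345.7 drawn open.

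Fosb encodes a Fos family protein, and a shortened form of it, ΔFosB, is long-lived and accumulates under repeated stimulation in neurons. In the deposited table its site was 345.7-fold higher in cold, with p of 8.05e-09 and FDR of 1.73e-07. It ranked 17 of the 301 higher sites, between Mreg at 352.8 and Nr1d2 at 309.3. The fold is a whole multiple of 0.1, as were 109 of the 739 folds (14.7%). Those 109 folds had a median of 345.7 and reached 2389, while the others had a median of 11.1 and reached 464. How the tables came to hold such folds is not given in the sources used here, so the size of the Fosb fold is not set against the folds of the other AP-1 genes.

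The Fosb site lay at chr7:19305002-19305302 on the minus strand, 301 bp at the very start of exon 4 of 4 and wholly within the coding sequence (CDS) of the longest form, Fosb-201. This stretch holds the alternative intron that separates the full-length and the shortened protein. The intron is 140 bases long, at chr7:19305007-19305146, lies entirely inside the site and makes up 46.5% of it. It is spliced out in 2 of 6 annotated coding transcripts, Fosb-206 and Fosb-207, whose reading frame then ends after 237 codons in place of 338. The site covers 156 bases before the intron and 5 bases after it, and those 5 bases include the stop codon of the shortened form. The boundaries are printed because they mark where the transcripts of the full-length and shortened protein part, with capitals for the first and the last bases of the intron.
Fosb exon to intron, 5′ to 3′: ggcccgctggccgagGTgagagatttgcca
Fosb intron to exon, 5′ to 3′: tctctttacacacAGtgaagttcaagtcct
Only 2 DRACH matches were found in the Fosb site, both in the 156 bases before the intron and none within it. Those 156 bases are shared by the full-length and shortened transcripts. No count for single transcript forms was analysed here, so how the site divides between them was not tested.

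Fosl2, the Fos family member also called Fra-2, had a site 11.6-fold lower in cold, with p of 1.57e-08 and FDR of 2.36e-07. It lay at chr5:32156842-32157300 on the plus strand, 459 bp in exon 4 of 4 and in the 3′ UTR of Fosl2-201. That 3′ UTR is 4653 bases long, and 3652 bases separated the stop codon from the site. Its midpoint lay 3882 bases from the stop codon. Of the 412 sites placed in a 3′ UTR, 23 (5.58%) had a midpoint at least as far from their stop codon, and the median distance to the midpoint was 498 bases. The site was the most AT-rich of the 7 at 34.0% GC, against a median of 48.3% over all sites searched, and held 12 DRACH matches. Its fold was rank 268 of the 438 lower sites, between B3galnt1 at 11.6 and Fam129b at 11.5.

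Jun, the founding member of the Jun family and the partner of Fos proteins, had a site 4.66-fold higher in cold, with p of 1.29e-08 and FDR of 2.1e-07. This was the smallest fold of the 7 and rank 291 of 301 higher sites, just above Mrpl12 at 4.61. The lowest fold in that table was 4.05 and sites under it were not listed, so Jun lay just inside the range and no value just outside can be given. The site, at chr4:95050982-95051380 on the minus strand, was 399 bp in the only exon of the gene. It covered the last 109 bases of the 5′ UTR and the first 290 bases of the CDS, and so spanned the start codon. The start codon is shown because a DRACH match, TGACT, overlaps it, and capitals mark the codon at chr4:95051269-95051271.
Jun start codon, 5′ to 3′: gacggaccgttctATGactgcaaagatgga

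Side by side, the 3 AP-1 sites differed in direction, in place and in sequence. Fosb and Jun were higher and Fosl2 was lower in cold, so the Fos family members were in opposite tables. The Fosb site lay in the coding part of the last exon, with its final base 161 bases before the end of the stop codon, the Fosl2 site far down the 3′ UTR, and the Jun site across the start codon. DRACH matches numbered 0.66 per 100 bases in Fosb, 2.61 in Fosl2 and 2.51 in Jun. Fosb and Jun were close in GC content, at 61.8% and 62.7%, with Fosl2 at 34.0%. The translated coding sequences were 51.5% identical between Fosb and Fosl2 over 301 aligned residues, 30.4% between Fosb and Jun over 227 and 17.1% between Fosl2 and Jun over 304. The pair that shared most sequence, Fosb and Fosl2, differed in direction, and so did the pair that shared least, Fosl2 and Jun. Fos, Fosl1, Junb and Jund had no row in either table, which says only that no site of theirs passed the limits of the tables.

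**Figure D2:**
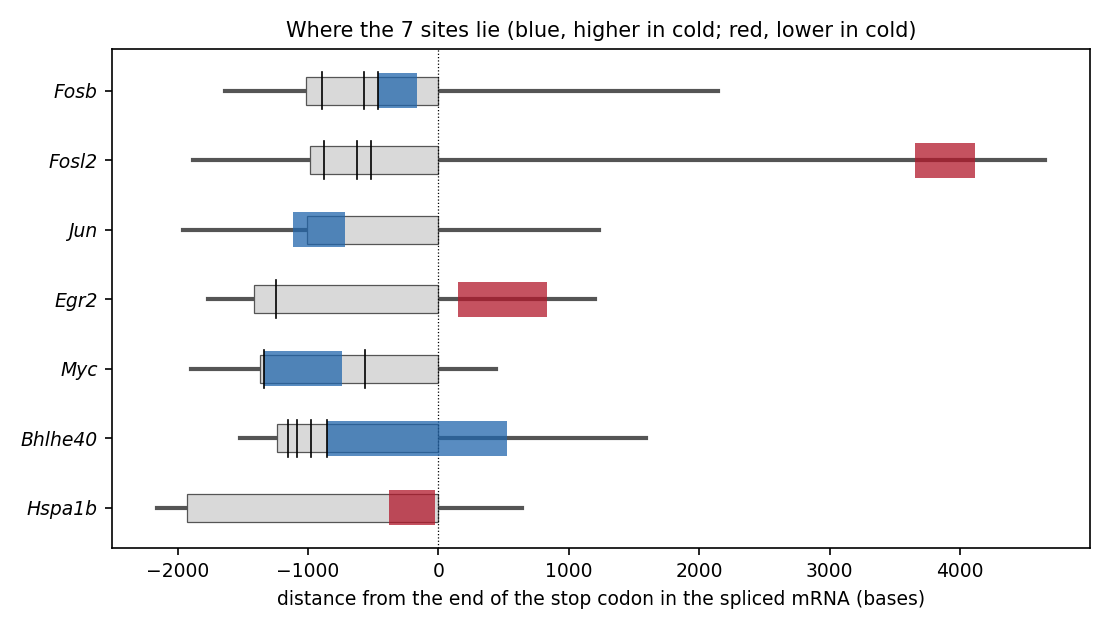
Position of each site along the spliced mRNA, as bases from the end of the stop codon (dotted line), with lines for UTRs, grey boxes for the coding sequence, black ticks for exon ends, blue for sites higher and red for sites lower in cold. The Fosl2 site begins 3652 bases after the stop codon, the Jun site spans the start codon and the Myc site begins at exon 2; 45 bases of the Myc site outside this transcript are not drawn.

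Egr2, a zinc finger transcription factor of the early growth response family known for its part in Schwann cell myelination and in early adipocyte differentiation, had a site 5.70-fold lower in cold. Its p of 4.24e-07 and FDR of 3.83e-06 were the largest of the 7, and its fold was rank 374 of the 438 lower sites, between 9830147E19Rik at 5.73 and Mpdz at 5.64. The site, at chr10:67541142-67541820 on the plus strand, was 679 bp in exon 2 of 2. It lay wholly in the 1200-base 3′ UTR, from 153 bases after the stop codon, and reached 832 bases from it. With 18 DRACH matches in 679 bp, or 2.65 per 100 bases, it was the densest of the 7. Egr1, Egr3 and Egr4 had no row, nor did the Egr corepressors Nab1 and Nab2. None of the 5 Schwann cell markers had a site, so no Schwann cell value can be set beside Egr2. Of the 6 fibroblast and preadipocyte markers, 3 had lower sites (Col3a1, Dcn and Fbn1) and 0 had higher ones. The part of such cells in the Egr2 site was not tested.

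Myc, a basic helix-loop-helix factor that pairs with Max to drive growth and metabolic genes, had a site 40.0-fold higher in cold, with p of 1.09e-08 and FDR of 1.89e-07. Its fold was rank 88 of 301, between Ppargc1b at 41.8 and Fndc5 at 38.5. The site, at chr15:61987462-61988100 on the plus strand, was 639 bp long. In Myc-201, 594 bases of it lay in the CDS of exon 2 of 3, and it was the only one of the 7 sites outside a last exon. Its first 45 bases lay in the intron before exon 2 of Myc-201 and inside exon 1 of Myc-204. The Myc protein can be started at a non-AUG codon in the first exon or at the AUG in the second. This AUG, at chr15:61987522-61987524, lay in the site 60 bases from its 5′ end and is shown in capitals for comparison with that of Jun. No DRACH match overlaps it.
Myc AUG start codon, 5′ to 3′: gacagccacgacgATGcccctcaacgtgaa
The 15 DRACH matches of the Myc site lay 6 upstream and 9 downstream of its centre. Those nearest its 5′ end, TAACT and AGACT, lay in the 45 bases that are intron in Myc-201. The neighbouring matches on either side of the centre stood 272 bases apart, counted from middle to middle.

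Bhlhe40, also known as Dec1, a repressor of the same helix-loop-helix class that feeds back on the circadian clock, had a site 9.36-fold higher in cold, with p of 9.46e-08 and FDR of 9.69e-07. It was the longest of the 7, 1382 bp at chr6:108664479-108665860 on the plus strand in exon 5 of 5. The site covered 854 bases of the CDS and the first 528 of the 1593 bases of the 3′ UTR. It spanned the stop codon at chr6:108665330-108665332, as 196 of the 660 placed sites did (29.7%). The stop codon is printed in capitals because DRACH matches flank it on both sides, AGACT ending in its first base and AAACT starting in its second.
Bhlhe40 stop codon, 5′ to 3′: agaaaccaaagacTAAactctggagggatc
The site held 33 DRACH and 11 GGAC matches, the most of the 7, with 12 of the DRACH matches upstream and 21 downstream of the centre. The neighbouring DRACH matches on either side of the centre stood 342 bases apart, counted from middle to middle. The fold of the site was rank 171 of 301, between Sorl1 at 9.51 and Foxk1 at 9.31.

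Hspa1b, a stress-inducible member of the Hsp70 family of chaperones, had a site 8.46-fold lower in cold, with p of 1.64e-07 and FDR of 1.6e-06. It lay at chr17:34957102-34957460 on the minus strand, 359 bp in the only exon and all in the CDS, ending 23 bases before the end of the stop codon. Its fold was rank 310 of 438, between Fcgr2b at 8.52 and Irx2 at 8.42. The neighbouring gene Hspa1a encodes a nearly identical protein and had no row. Over the site, 6 of 359 bases of Hspa1b differed from Hspa1a (98.3% identical), and the longest run without a difference was 247 bases. Windows of 150 bases, the read length of the study, were identical between the paralogs at 98 of 210 positions in the site (46.7%). Reads from this stretch can therefore not always be assigned to one gene, and the Hspa1b site is uncertain as to which of the paralogs it came from. Of the 6 differences, 3 were the substitutions G1629A, G1884C and A1887G, with the Hspa1b base first and counted from the first base of its CDS, and 3 were bases 1877 to 1879 of Hspa1b with no counterpart. The stretch with 5 of these 6 differences is shown, with capitals for bases that differ or lack a counterpart.
Hspa1b, 5′ to 3′: ggcccaggCGCcgccGaaAggagcctctgg
Hspa1a, 5′ to 3′: ggcccaggcgccCaaGggagcctctgg
Beyond the stop codon the paralogs part, with 57.5% of bases identical over the 643-base 3′ UTR of Hspa1b, against 99.4% over the CDS.

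**Figure D3:**
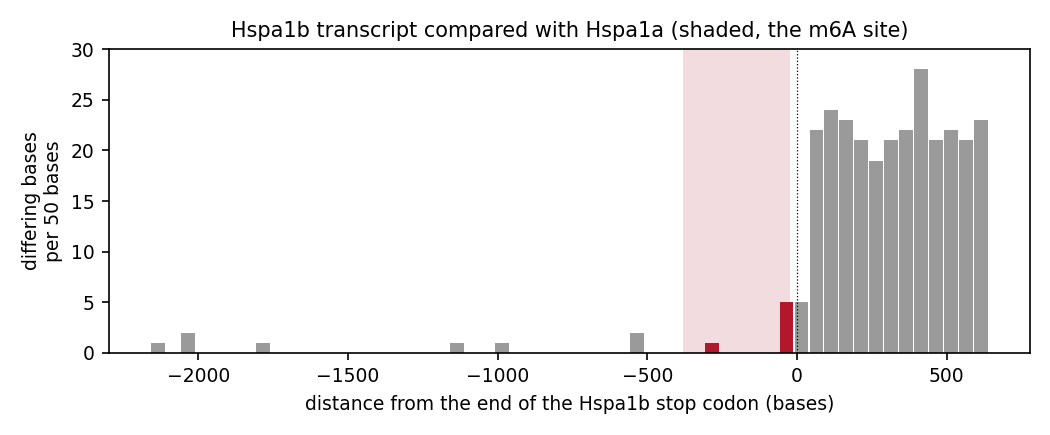
Bases of the Hspa1b transcript that differ from Hspa1a in windows of 50 bases, by distance from the end of the Hspa1b stop codon (dotted line), with the m6A site shaded and windows that touch it in red. Windows in the site hold between 0 and 5 differences, while most windows in the 3′ UTR hold 19 or more.

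Features that the choice of genes did not use were set beside all sites as a description. By its midpoint, the site lay in the CDS in 5 of the 7 genes and in the 3′ UTR in the other two, whereas 35.6% of the 660 placed sites were in the CDS, 62.4% in the 3′ UTR and 1.97% in the 5′ UTR. The 4 higher sites were all in the CDS, and of the 3 lower sites those of Fosl2 and Egr2 were in the 3′ UTR and that of Hspa1b in the CDS. The shares over all placed sites are for both directions together, so nothing is read from this split by direction. The site was in the last exon in 6 of the 7 genes, Myc being the exception, and in 76.4% of all placed sites. A start codon lay in the site in Jun and Myc, and in 4.85% of all placed sites. A stop codon of some annotated transcript lay in the site in Bhlhe40 and, through the shortened form, in Fosb. No other annotated gene overlapped any of the 7 sites on either strand in GENCODE M21, and transcripts outside that annotation were not examined.

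All 7 sites held a DRACH match, as did 100% of the 707 sites that lay inside a single exon. The median was 2.39 matches per 100 bases in the 7 sites and 2.19 in all, with quartiles of 1.73 and 2.64. Fosb at 0.66 and Hspa1b at 0.84 fell below the lower quartile, and Egr2 at 2.65 was just above the upper. The GGAC core, which overlaps DRACH where A, C or T follows, was in 6 of the 7 sites and in 84.2% of all, Fosb being the one without it. Hspa1b had 5 GGAC but 3 DRACH matches, and its 1.39 GGAC per 100 bases was the highest of the 7, against an upper quartile of 0.60 over all sites.

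**Figure D4:**
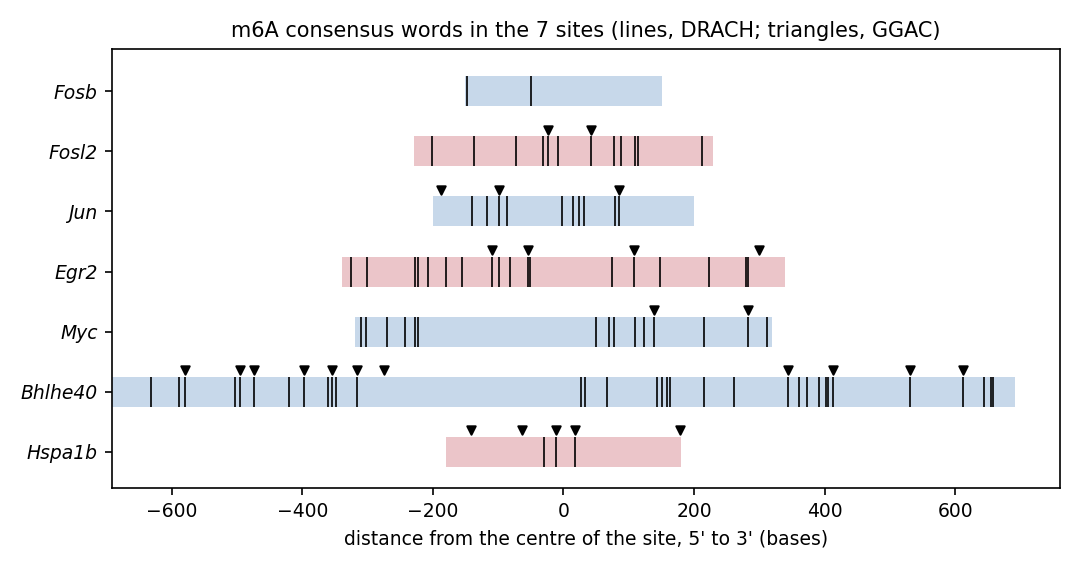
DRACH matches (vertical lines) and GGAC matches (triangles) along each site, as bases from the site's centre in the direction of transcription, with bars in blue for sites higher and in red for sites lower in cold. The Fosb bar holds 2 DRACH matches, both upstream of the centre, and the Bhlhe40 bar holds 33. Around the centre of the Myc and Bhlhe40 bars, neighbouring DRACH matches stand 272 and 342 bases apart, counted from middle to middle. A GGAC match falls between those of Bhlhe40.

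For the families around these genes, the number of genes with a site is given as a description. Which genes were measured well enough to have a site is not known from the tables, so no share of all such genes can stand beside these counts, and the directions stand beside the 36.1% of the 574 genes that had higher sites only. Of 44 symbols of AP-1 and basic leucine zipper relatives, 5 had one, 2 higher only and 3 lower only. Besides the 3 AP-1 genes these were Bach1, a repressor of oxidative stress genes, which was 4.995-fold lower with FDR of 2.91e-06, and Creb3l1, a membrane-bound factor of the secretory pathway, which was 75.9-fold lower with FDR of 2.14e-07. Of 63 immediate early genes, 7 had a site, 5 higher and 2 lower. Of these, 6 are among the genes selected here, so the split is largely that of the genes already described. The other was Errfi1, a feedback inhibitor of the EGF receptor, 58.6-fold higher with FDR of 3.67e-07 in the CDS. Egr1, Atf3, Ier2, Dusp1, Zfp36 and the Nr4a genes had none. Of 46 heat shock and chaperone genes only Hspa1b had a site.

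Of 24 genes of the Myc-Max network, Mycl was the other with a site, and it was 73.6-fold lower in its 3′ UTR (FDR of 2.33e-07) where Myc was higher in its CDS. Of 28 clock and Bhlhe genes, 3 had sites that were higher only. With Bhlhe40 these were the clock repressor Nr1d2, with higher sites of 309.3-fold in the 3′ UTR and 6.20-fold in the CDS, and Hes1, a Notch target of the same helix-loop-helix class, 4.37-fold higher. The fold of 309.3 in Nr1d2 is, like that of Fosb, a whole multiple of 0.1. Of 51 kinases and factors upstream of immediate early genes, the coactivators Ep300 and Crtc3 had sites, 5.51-fold and 23.5-fold lower, and no kinase of the list had one. In the pathway annotation deposited with the sites, Jun, Myc and Hspa1b stood under MAPK signaling with 4 further genes, 3 of the 7 higher only, 3 lower only and 1 in both directions. Fosb, Fosl2 and Jun stood under osteoclast differentiation, in which 3 of 10 genes were higher only and 7 lower only.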

How the data were processed

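According to the methods of the study, MeRIP-seq reads were trimmed with cutadapt, aligned to mm10 with Hisat2, called into peaks with MACS2 and compared with diffReps. Bowtie 0.12.2, MACS2, HOMER, mm8 and mm10 are named in the processing notes of the submitters, so the aligner differs between the sources. In GRCm38 (mm10), 736 of 739 sites (99.6%) overlapped their named gene, and 22 older symbols were matched by gene ID. Higher and lower sites, for C against T, stand in separate deposited tables, and the letters were read as cold and thermoneutral from the sample titles. Each row of the deposited tables holds a fold (a linear ratio), a p-value, an FDR, a score that is −log10 of the p-value, and positions and length in bp. These columns are the authors' own comparison and were used as a list of called sites. No test was made on them. The largest p in the deposited tables was 9.65e-06, the largest FDR 7.27e-05, the smallest fold 4.01 and the shortest site 300 bp. Depth and spread per sample are unknown, and the number of libraries limits precision.

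Starts were read as counted from 0 (an exon start was then met by 138 of the 153 that lay off a 20 bp grid, and by 1 when counted from 1) and are printed counted from 1. Sites were placed by midpoint on the coding transcript with the longest CDS (GENCODE M21), and DRACH and GGAC were sought on the transcribed strand only, with Python 3.11.15, pandas 2.3.3, numpy 2.4.6, pysam 0.24.0 and Biopython 1.88. Placement was tested on 400 simulated transcripts of both strands. The motif search was tested on planted GGACT only, so other DRACH words and the reading of the minus strand were not part of that test. Coding sequences were translated and aligned with gap penalties of 11 and 1. Genes named are the 7, list genes with a site (1 of them is not reported here), and the neighbours of each of the 7 in order of fold. Beside these, cell type markers with a site and genes of the lists without one are named. The genes and the lists were chosen with earlier results of these data known. Alternatives were a fold of at least 8, a p of at most 1e-07, other transcripts, regions, starts and motif windows.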

Additional observations from a re-analysis of the deposited data

How the results depend on the processing

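No paired analysis was possible because the tables hold the finished comparison and no values of single libraries, and leaving out a replicate was not possible for the same reason. Of 27 alternatives over 10 results, 23 stayed within 1.5 times the main value and 4 moved further. A reversal was not scored. Some alternatives could not move. Each of the 7 genes had a single site, so taking the strongest site of each gene left their values unchanged. No lower site of the 7 had a fold in whole multiples of 0.1, so leaving such folds out did not touch the lower sites. At a fold of at least 8, 3 of the 4 higher and 2 of the 3 lower sites were kept, and both counts were scored as within 1.5 times. The sites of Jun and Egr2 were lost there, so the AP-1 comparison with Jun does not hold at that limit. At p of at most 1e-07, 1 of the 3 lower sites was kept, that of Fosl2, and all 4 higher sites. Without folds in whole multiples of 0.1, which leaves out Fosb, the median fold of the higher sites was 9.36 in place of 24.7. With GGAC in place of DRACH, the median was 0.59 matches per 100 bases in the 7 sites and 0.34 over all sites, since the word searched is another one. Depth cannot be judged, and sites with folds under about 4 were not listed.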
